A study of Mus musculus with 110 samples.

Results

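Cholesterol synthesis, uptake and export were followed through 30 genes, chosen by symbol and role, out of 56884 genes in the count tables. They comprise 18 enzymes that build cholesterol from acetyl-CoA, 4 genes of sterol sensing, 2 genes of sterol uptake and transport, 4 exporters and the 2 LXR receptors. The RNA sequencing covered liver, interscapular brown fat (iBAT), inguinal white fat (iWAT) and epididymal white fat (eWAT) of 28 male C57BL/6N mice. Each mouse gave the 4 tissues, the mice were housed singly, and they were 16 weeks old at the end.

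The 4 groups crossed diet and temperature. Ctrl_RT mice ate the control diet for 7 days at 22 °C, and Ctrl_CE mice ate it likewise and then spent 24 h at 4 °C (cold exposure, CE). MetR_RT and MetR_CE mice went through the same temperatures on a methionine-restricted (MetR) diet with 0.12% methionine. The control diet held 0.8% methionine by the study's methods and 0.86% by the sample labels. Both diets were depleted of cysteine, so the control mice carried that change too. The cold groups were also 1 day longer on their diet, which cannot be told apart from the cold. Groups held 7 libraries, except 6 for iBAT Ctrl_RT and Ctrl_CE, iWAT MetR_CE and eWAT MetR_RT, and 4 for eWAT Ctrl_RT, after the 5 libraries that the study left out were removed.

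Cholesterol is made in the endoplasmic reticulum by a long enzyme chain that runs through mevalonate, squalene and lanosterol. Its genes are switched on by the transcription factor SREBP2, the product of Srebf2, which the escort protein Scap carries to the Golgi when membranes are poor in sterol and which Insig1 and Insig2 hold back when they are rich in it. A surplus of sterol feeds the LXR receptors Nr1h3 and Nr1h2, whose targets export cholesterol: Abca1 and Abcg1 onto lipoproteins, Abcg5 and Abcg8 as a heterodimer into bile. The liver is the main site of synthesis and of loss into bile, whereas fat cells mostly store cholesterol that they take up.

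Promoter sequences are shown first for members at the extremes of the results below: Hmgcs1 and Mvd, which rose in cold liver, Ebp, which did not, and the stretch between Abcg5 and Abcg8, which rose in liver on the MetR diet. Capitals mark the sterol regulatory element TCACNCCAC and the CCAAT box, each searched on both strands, so ATTGG is a CCAAT box on the other strand. RefSeq windows (GRCm38.p6) of the 250 bases before the start are given 5′ to 3′ for Hmgcs1 (chr13:119690101-119690350, plus strand), Mvd (chr8:122443423-122443672, minus strand) and Ebp (chrX:8193513-8193762, minus strand). The 109 bases between the divergent starts of Abcg5 and Abcg8 (chr17:84683012-84683120) are given on the plus strand. Outside this stretch, the 250 bases before that Abcg8 start held CCAAT at 175 and 114 bases before it.
Hmgcs1: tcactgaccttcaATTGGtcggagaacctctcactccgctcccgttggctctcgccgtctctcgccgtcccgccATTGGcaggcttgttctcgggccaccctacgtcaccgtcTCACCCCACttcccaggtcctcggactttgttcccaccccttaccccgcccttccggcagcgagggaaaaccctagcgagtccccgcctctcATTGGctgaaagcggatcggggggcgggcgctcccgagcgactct
Mvd: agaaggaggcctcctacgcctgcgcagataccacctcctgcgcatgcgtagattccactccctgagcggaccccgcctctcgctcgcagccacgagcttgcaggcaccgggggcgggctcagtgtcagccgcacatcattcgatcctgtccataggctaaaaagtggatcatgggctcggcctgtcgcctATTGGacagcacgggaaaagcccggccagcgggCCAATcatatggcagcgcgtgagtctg
Ebp: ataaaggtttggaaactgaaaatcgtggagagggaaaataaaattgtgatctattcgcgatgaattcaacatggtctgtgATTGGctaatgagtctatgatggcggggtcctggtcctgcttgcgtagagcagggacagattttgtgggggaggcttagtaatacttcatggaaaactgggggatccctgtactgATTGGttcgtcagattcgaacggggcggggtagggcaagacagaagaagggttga
Abcg5 to Abcg8: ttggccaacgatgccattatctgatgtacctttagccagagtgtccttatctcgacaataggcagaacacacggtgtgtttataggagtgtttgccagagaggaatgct

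A window was found for 25 of the 30 genes, and Fdps, Fdft1, Sqle, Stard4 and Abcg1 had none in the table used here. CCAAT stood in 14 of the 15 synthesis genes with a window (93.3%), against 37.5% of 27025 genes. The element TCACNCCAC was found in Hmgcs1, 137 bases before the start, and in no other member, against 1.22% of all genes. The E-box CACGTG stood in 6 of 25 members (6.86% of all genes), and the LXR element DR4, a direct repeat of AGGTCA spaced by 4 bases, in 0 of 25 (0.0148% of all genes). Ebp held CCAAT at 170 and 55 bases before the start, and it rose in no contrast of any tissue. These are matches of letters, and binding was not measured.

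Library totals were 6987895 to 33444374 counts for liver, 22021114 to 33372110 for eWAT, 16607493 to 33141066 for iWAT and 12672686 to 31232349 for iBAT. Levels are in CPM (counts scaled to a common library total) within a tissue, with n as given above. A gene was called when the adjusted p of edgeR's quasi-likelihood test was under 0.05 and the fold change was at least 1.5, and "rose" and "fell" are used for called genes. The 5 hepatocyte markers summed to 58002 to 97196 CPM in every liver library, the brown fat gene Ucp1 was at 0 in all of them, and the 4 brown adipocyte markers reached 8268 to 18593 CPM in iBAT. Ucp1 also ran from 1.27 to 5660 CPM over the iWAT libraries. In these bulk samples, fewer cells of a type and less RNA per cell cannot be told apart. The 3 contrasts against Ctrl_RT share those control libraries within a tissue. Where counts are given at an unadjusted p, by DESeq2 or without single libraries, the share of all genes was not counted.

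**Figure D1:**
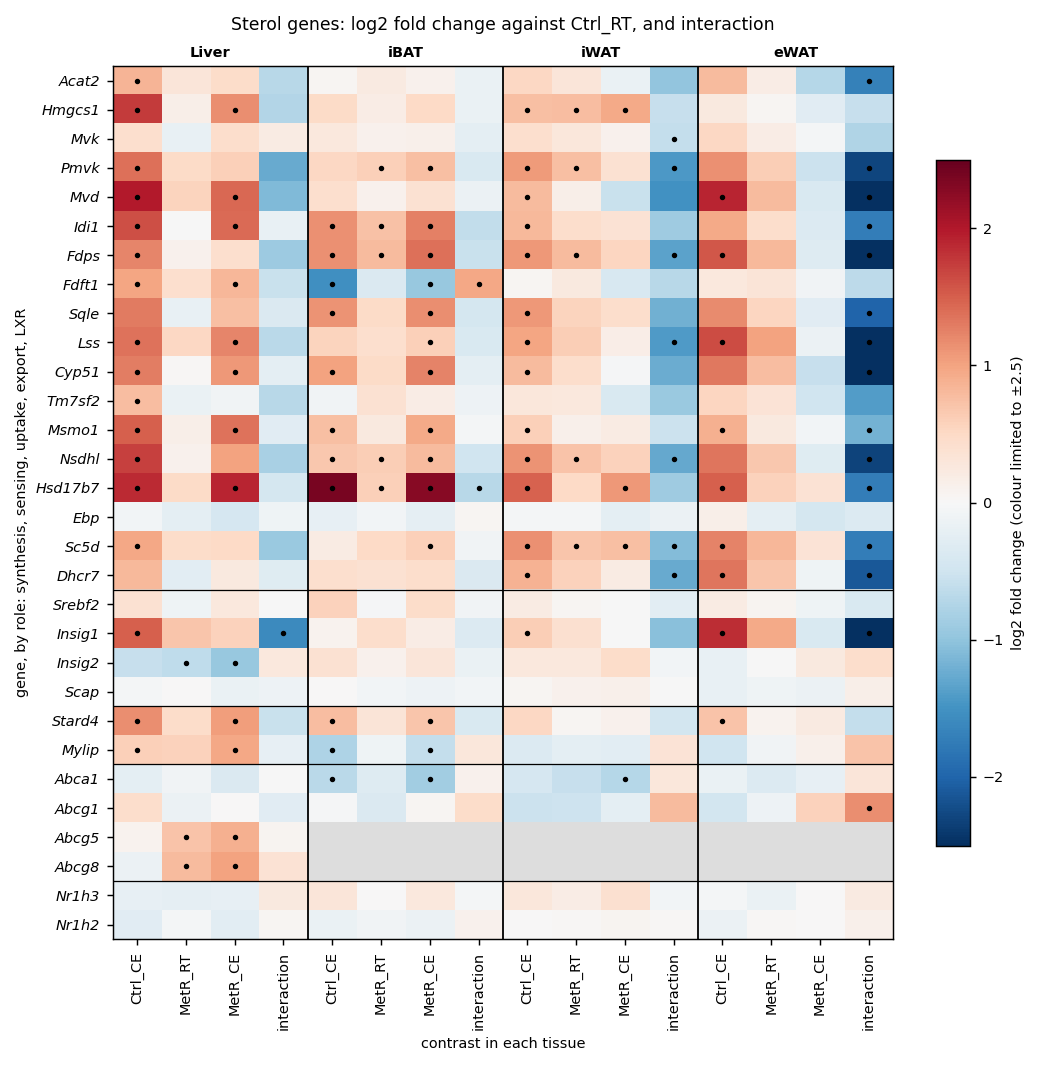
Log2 fold changes (colour, limited to ±2.5) of the 30 genes in rows, by role, for Ctrl_CE, MetR_RT and MetR_CE against Ctrl_RT and for the interaction, in 4 tissues. Black dots mark called genes and grey cells were not tested or had means under 1 CPM in every group of the tissue: synthesis genes rose in Ctrl_CE in every tissue, and the interaction column of eWAT is below 0 for all 18 of them.

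In liver, cold raised 14 of the 18 synthesis genes on the control diet and 3 of 18 on the MetR diet (MetR_CE against MetR_RT, median log2 change 0.66), and the MetR diet alone raised 0. On the MetR diet, 9 of the 18 were at an unadjusted p under 0.05. The interaction was called for 0 of the 18 (4 at an unadjusted p under 0.05, 1 called by DESeq2). The counts of 14 and 3 therefore do not show a difference by diet. In Ctrl_CE, 17 of the 30 genes rose and 0 fell, where 7.28% of all genes tested rose and 4.64% fell. In MetR_RT, 2 rose and 1 fell (2.88% and 4.02% of all genes, 6.91% in either direction), and these were Abcg8, Abcg5 and Insig2. In MetR_CE, 12 rose and 1 fell (6.25% and 7.22% of all genes). Of the 18 synthesis genes, 14 rose in Ctrl_CE with a median log2 change of 1.30, beside -0.011 over all genes, 0 in MetR_RT with a median of 0.12 (2 at an unadjusted p under 0.05 and 0 called by DESeq2), and 8 in MetR_CE against Ctrl_RT, which combines diet and cold, with a median of 0.79.

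Mvd, which decarboxylates mevalonate diphosphate, had the largest change in cold liver. It ranged from 8.66 to 17.8 CPM in Ctrl_RT with a median of 12.3, and from 21.2 to 120.2 CPM in Ctrl_CE with a median of 49.6, so the groups did not overlap (log2 change 1.98 ± 0.503 SE, adjusted p 0.00312). In MetR_RT it spread from 3.24 to 44.95 CPM, below and above the whole control range (0.55 ± 0.504, adjusted p 0.516), and in MetR_CE from 12.4 to 73.2 CPM (1.44 ± 0.503, adjusted p 0.0285). Hsd17b7, a sterol ketone reductase, was at 26.7 to 47.6 CPM in Ctrl_RT with a median of 31.3. It reached 71.7 to 224.7 CPM in Ctrl_CE (1.86 ± 0.246, adjusted p 1.32e-06) and 74.8 to 204.6 CPM in MetR_CE (1.904 ± 0.247, adjusted p 4.81e-07), all above the controls, and 30.6 to 71.4 CPM in MetR_RT (0.49 ± 0.243, adjusted p 0.176). Cold on the MetR diet also raised Hsd17b7 against MetR_RT (1.42 ± 0.242, adjusted p 8.65e-05), a comparison in which 4 of the 30 genes rose and 0 fell, beside 2.75% and 2.44% of all genes (5.18% in either direction).

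Hmgcs1, which makes HMG-CoA and carries the sterol regulatory element printed above, went from 63.3 to 182.4 CPM in Ctrl_RT (median 98.4) to 165.5 to 1026 CPM in Ctrl_CE (median 254.8). The highest Ctrl_CE library stood far above the rest of its group, and the ranges overlapped slightly (log2 change 1.75 ± 0.438, adjusted p 0.00279). Idi1, the isopentenyl diphosphate isomerase, rose in Ctrl_CE (1.61 ± 0.426, adjusted p 0.00453) and in MetR_CE (1.42 ± 0.429, adjusted p 0.0111), from 1.42 to 10.3 CPM in Ctrl_RT to 9.65 to 39.6 CPM and 5.88 to 30.8 CPM. Sqle (squalene epoxidase), Dhcr7, Mvk and Ebp were the 4 synthesis genes that did not pass in Ctrl_CE. Their changes were 1.31 ± 0.548 for Sqle (adjusted p 0.0728) and 0.81 ± 0.316 for Dhcr7, the final reductase (adjusted p 0.0532). Mvk, the mevalonate kinase, was at 0.42 ± 0.272 (adjusted p 0.267). Ebp, a sterol isomerase, was at -0.06 ± 0.0755 in Ctrl_CE and at -0.42 ± 0.0757 in MetR_CE, the latter past the p threshold (adjusted p 6.43e-05) and short of the fold threshold.

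The liver libraries of a group varied together in these genes, as the plot of synthesis genes by liver library shows. Replicates 1, 4 and 7 of MetR_RT were the 3 lowest of their group for 17 of the 18 synthesis genes, and also for Srebf2, Insig1 and the sterol carrier Stard4. Replicates 1, 6 and 7 of MetR_CE were the 3 lowest for 17 of the 18 and for the same 3 other members. In Ctrl_CE, replicate 1 was the highest for 17 of the 18. Without that library 16 of the 17 calls in Ctrl_CE remained, and Fdps was the call lost (1.01, adjusted p 0.097, against 1.22 ± 0.448 and 0.0392 with it).

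**Figure D2:**
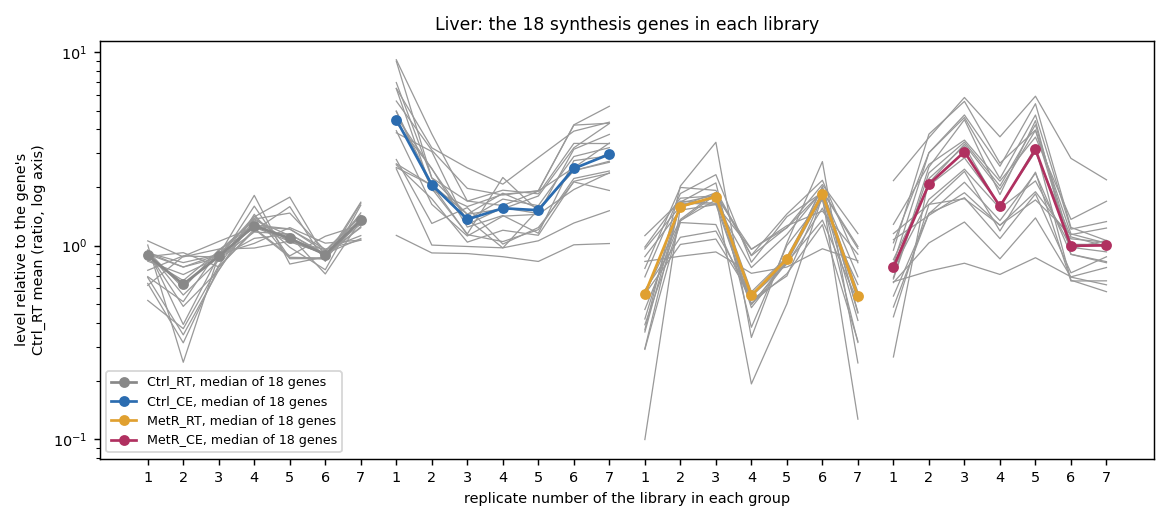
Levels of the 18 synthesis genes in each liver library, relative to the gene's Ctrl_RT mean (log axis). Each line joins the values of a gene, libraries are grouped by treatment and their replicate numbers have no order; replicates 1, 4 and 7 of MetR_RT and 1, 6 and 7 of MetR_CE lie low across the genes, and Ctrl_CE replicate 1 lies high.

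Among the sensors, both Insig genes moved in liver, in opposite directions. Insig1, itself a target of SREBP2, was at 98.0 to 256.9 CPM in Ctrl_RT with a median of 199.2, and at 287.2 to 702.3 CPM in Ctrl_CE with a median of 582.2, without overlap (log2 change 1.49 ± 0.263, adjusted p 6.74e-05). In MetR_RT it ranged from 128.7 to 430.0 CPM (0.69 ± 0.259, adjusted p 0.0616) and in MetR_CE from 184.3 to 400.4 CPM (0.58 ± 0.259, adjusted p 0.0886). The response to cold therefore differed by diet, with an interaction of -1.59 ± 0.366 (adjusted p 0.022), the only called interaction among the 30 genes in liver, where 1.06% of all genes had one. Against Ctrl_CE, Insig1 in MetR_CE fell by 0.90 on the log2 scale (SE 0.259, adjusted p 0.0192).

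Insig2 was lower in all 3 treated groups of liver. It was at 272.5 to 401.6 CPM in Ctrl_RT with a median of 317.3, at 155.6 to 268.01 CPM in Ctrl_CE, at 137.4 to 273.8 CPM in MetR_RT and at 118.2 to 242.5 CPM in MetR_CE. The highest treated value, in MetR_RT, just passed the lowest control value, and the other treated groups lay wholly below the controls. The log2 changes were -0.63 ± 0.169 in MetR_RT (adjusted p 0.00766) and -0.95 ± 0.17 in MetR_CE (adjusted p 5.38e-05). That in Ctrl_CE, -0.58 ± 0.169 (adjusted p 0.00936), was just short of the fold threshold. Srebf2 had a change of 0.38 ± 0.143 in Ctrl_CE (adjusted p 0.0443), under the fold threshold, and Scap stayed between -0.17 and 0.0044 in the 3 groups with no adjusted p under 0.05.

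Abcg5 and Abcg8 rose on the MetR diet in liver at both temperatures, and neither was called with cold alone. Abcg5 was at 79.02 to 175.9 CPM in Ctrl_RT (median 124.5) and at 105.0 to 164.2 CPM in Ctrl_CE (median 139.2), with a log2 change of 0.10 ± 0.134 (adjusted p 0.646). On the MetR diet it stood at 145.6 to 253.2 CPM in MetR_RT (0.71 ± 0.134, adjusted p 0.000277) and at 186.5 to 292.2 CPM in MetR_CE (0.88 ± 0.135, adjusted p 6.02e-06), the latter above every control. Its partner Abcg8 went from 109.7 to 188.6 CPM in Ctrl_RT (median 150.7) to 179.2 to 294.02 CPM in MetR_RT (median 278.4, log2 change 0.80 ± 0.112, adjusted p 5.59e-06). In MetR_CE it reached 233.5 to 361.6 CPM (1.01 ± 0.112, adjusted p 3.47e-08), and in Ctrl_CE it was at 114.8 to 162.0 CPM (-0.15 ± 0.112, adjusted p 0.338). A single MetR_RT library lay within the control range for Abcg8.

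Within the cold, the diet effect on the pair stood as well: MetR_CE exceeded Ctrl_CE by 0.78 ± 0.134 for Abcg5 (adjusted p 0.000179) and by 1.17 ± 0.113 for Abcg8 (adjusted p 8.66e-08), without overlap for either gene. In that comparison 2 of the 30 genes rose and 2 fell, beside 1.17% and 4.1% of all genes (5.26% in either direction). The genes that fell were Insig1 and Tm7sf2, a sterol reductase (-0.87 ± 0.229, adjusted p 0.00996). Abca1 had a change of -0.35 ± 0.102 in MetR_CE (adjusted p 0.00784) and Abcg1 of 0.43 ± 0.16 in Ctrl_CE (adjusted p 0.0418), both under the fold threshold. The receptor Nr1h3 was slightly lower in the 3 treated groups, by log2 values of -0.21, -0.23 and -0.20 (adjusted p 0.00986, 0.00835 and 0.0128). Nr1h2 had changes of -0.28 in Ctrl_CE and -0.27 in MetR_CE (adjusted p 0.000246 and 0.000256).

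The 5 macrophage markers, which bear on Abca1 and Abcg1 because macrophages carry both exporters, summed to 130 to 195 CPM in liver Ctrl_RT, 107 to 475 in Ctrl_CE, 66.8 to 124 in MetR_RT and 98.7 to 119 in MetR_CE. All 5 were lower in MetR_CE than in Ctrl_CE, and their part in the exporter values was not tested. Stard4 rose in Ctrl_CE (1.16 ± 0.161, adjusted p 2.84e-06) and in MetR_CE (1.05 ± 0.161, adjusted p 6.29e-06), from 53.8 to 99.9 CPM in Ctrl_RT to 132.6 to 217.3 and 124.7 to 197.7 CPM, without overlap. Mylip, a ubiquitin ligase that marks lipoprotein receptors for breakdown, was at 7.04 to 10.6 CPM in Ctrl_RT. It reached 10.8 to 15.9 CPM in Ctrl_CE (0.59 ± 0.116, adjusted p 0.00022), 10.1 to 16.1 CPM in MetR_RT (0.58 ± 0.116, adjusted p 0.000474, just short of the fold threshold) and 14.1 to 18.9 CPM in MetR_CE (0.96 ± 0.115, adjusted p 1.28e-07).

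**Figure D3:**
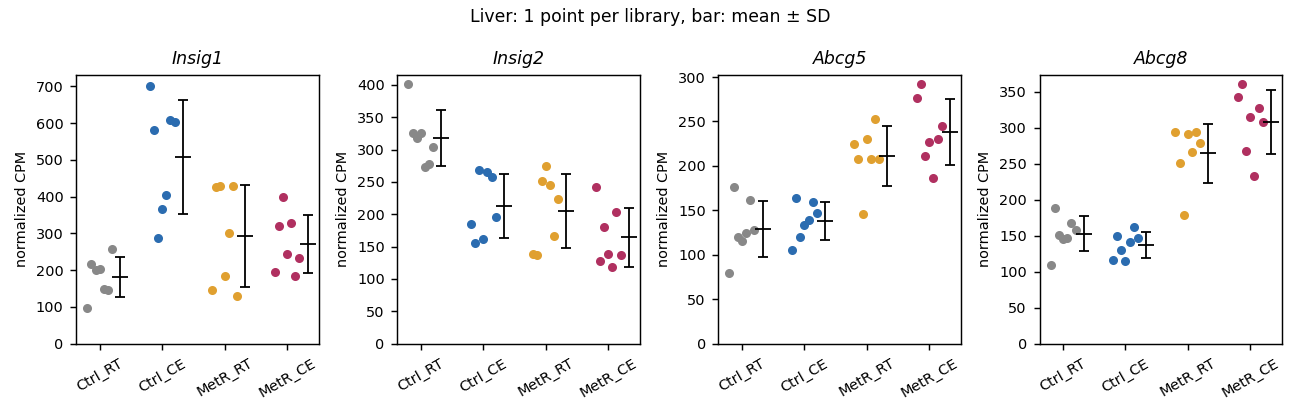
Levels in liver (CPM, linear axis from 0) of Insig1, Insig2, Abcg5 and Abcg8 in each of the 7 libraries of the 4 groups, with bars at the mean ± SD. Insig1 is highest in Ctrl_CE, Insig2 is lower in every treated group, and Abcg5 and Abcg8 are raised in both MetR groups.

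In iBAT, cold raised part of the synthesis pathway while it lowered Fdft1, the squalene synthase. Of the 29 genes tested there (Abcg5 was filtered out, with 1 to 3 counts summed over a group), 8 rose and 3 fell in Ctrl_CE, beside 4.97% and 9.72% of all genes. In MetR_RT, 5 rose and 0 fell (0.535% and 1.97% of all genes), and in MetR_CE 11 rose and 3 fell (4.36% and 10.3%). The synthesis genes gave 7 rises and 1 fall in Ctrl_CE with a median log2 change of 0.50, 5 rises in MetR_RT with a median of 0.41, and 10 rises and 1 fall in MetR_CE with a median of 0.60. In MetR_CE, 10 of the 18 lay above Ctrl_RT without overlap, but the share of all genes that did so was not counted.

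Hsd17b7 had the largest change of the 30 genes in iBAT. It was at 9.24 to 12.8 CPM in Ctrl_RT (median 11.1), 14.98 to 21.4 in MetR_RT, 40.3 to 72.7 in Ctrl_CE (median 59.4) and 48.5 to 62.7 in MetR_CE. Each treated group lay wholly above the controls, with log2 changes of 0.59 ± 0.122 in MetR_RT (adjusted p 0.00284), 2.37 ± 0.126 in Ctrl_CE (adjusted p 3.62e-14) and 2.27 ± 0.123 in MetR_CE (adjusted p 1.36e-13). Fdps, the farnesyl diphosphate synthase just upstream of squalene, was at 49.5 to 82.2 CPM in Ctrl_RT and at 90.5 to 184.6, 82.6 to 131.1 and 139.8 to 178.2 CPM in Ctrl_CE, MetR_RT and MetR_CE. Its changes were 1.14, 0.80 and 1.38 (adjusted p 4.1e-07, 0.000725 and 1.17e-08), and again no treated library overlapped the controls. Idi1 rose in the same 3 groups (1.14, 0.74 and 1.27, adjusted p 4.14e-07, 0.00176 and 5.69e-08). Nsdhl, a dehydrogenase of sterol demethylation, also rose in all 3 (0.68, 0.61 and 0.79, adjusted p 0.000163, 0.0035 and 1.8e-05).

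Fdft1 went the other way. It was at 73.8 to 138.6 CPM in Ctrl_RT with a median of 106.0, and at 24.5 to 47.1 CPM in Ctrl_CE with a median of 37.7, without overlap (-1.54 ± 0.16, adjusted p 8.51e-09). In MetR_CE it was at 51.7 to 66.4 CPM (-0.94 ± 0.15, adjusted p 1.14e-05), below every control and above every Ctrl_CE library, and in MetR_RT at 54.7 to 109.8 CPM (-0.36 ± 0.15, adjusted p 0.149). Fdft1 had an interaction of 0.96 ± 0.214 (adjusted p 0.025) and Hsd17b7 one of -0.69 ± 0.166 (adjusted p 0.0379), beside 0.372% of all genes. For 3 iBAT libraries a treatment tag names another group than the title used here. Grouped by the tag, or without the 3 libraries, neither interaction passed: Fdft1 stood at 0.73 (adjusted p 0.407) and 0.83 (adjusted p 0.111), Hsd17b7 at -1.02 (adjusted p 0.3) and -0.69 (adjusted p 0.0915). The higher Fdft1 level in MetR_CE than in Ctrl_CE (0.59 ± 0.154, adjusted p 0.0201) was the only call among the 30 genes in that comparison, beside 1.64% of all genes, and was lost likewise, at 0.35 (adjusted p 0.55) by the tag and 0.51 (adjusted p 0.093) without the 3 libraries.

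Srebf2 in iBAT was at 55.8 to 73.2 CPM in Ctrl_RT and at 89.9 to 102.4 CPM in Ctrl_CE. The groups were apart and the spread was small, yet the change of 0.58 ± 0.0574 (adjusted p 3.98e-09) fell just under the fold threshold. In MetR_CE it was at 82.8 to 98.7 CPM (0.46 ± 0.0556, adjusted p 1.59e-07), and in MetR_RT at 60.3 to 68.7 CPM (-0.02 ± 0.0555, adjusted p 0.861). Insig1, at 287.2 to 563.7 CPM in Ctrl_RT, had changes of 0.08 ± 0.137 in Ctrl_CE (adjusted p 0.722), 0.44 ± 0.133 in MetR_RT (adjusted p 0.0438) and 0.18 ± 0.132 in MetR_CE (adjusted p 0.325). Insig2 had a change of 0.38 ± 0.0524 in Ctrl_CE (adjusted p 9.58e-07), from 33.5 to 37.3 CPM to 38.8 to 49.2 CPM. Nr1h3 had one of 0.30 ± 0.0451 (adjusted p 4.1e-06), from 75.5 to 84.8 CPM to 93.8 to 109.0 CPM. Both were wholly above the controls and under the fold threshold.

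Abca1 and Mylip fell in cold iBAT. Abca1 was at 82.5 to 184.9 CPM in Ctrl_RT (median 134.4), 57.4 to 111.4 in Ctrl_CE (median 76.3), 87.1 to 138.2 in MetR_RT (median 100.2) and 57.3 to 90.3 in MetR_CE (median 71.2). The changes were -0.67 ± 0.157 in Ctrl_CE (adjusted p 0.00108) and -0.88 ± 0.151 in MetR_CE (adjusted p 3.12e-05), with some overlap in both. Mylip, at 20.5 to 41.6 CPM in Ctrl_RT, was at 14.5 to 32.4 CPM in Ctrl_CE (-0.77 ± 0.172, adjusted p 0.000711) and at 18.3 to 28.1 CPM in MetR_CE (-0.60 ± 0.165, adjusted p 0.00531). Abcg1 had no call, with changes of -0.03, -0.37 and 0.05 in Ctrl_CE, MetR_RT and MetR_CE (adjusted p 0.915, 0.208 and 0.853). The macrophage markers summed to 63.9 to 104 CPM in Ctrl_RT, 40.03 to 112 in Ctrl_CE, 32.5 to 61.6 in MetR_RT and 25.8 to 42.6 in MetR_CE, and 3 and 4 of 5 fell in MetR_RT and MetR_CE. The 5 hepatocyte markers, at 47.1 to 131.8 CPM in Ctrl_RT and 3.26 to 47.996 over the treated libraries, gave 5, 3 and 4 falls in Ctrl_CE, MetR_RT and MetR_CE. Among them, Cyp2e1 ran from 2.81 to 113 CPM over the iBAT libraries and Alb from 0 to 38.2. Of the 4 brown adipocyte markers, 2 rose in each cold group and 1 in MetR_RT. Skeletal muscle markers varied between the iBAT libraries (Myh4 from 0 to 677 CPM), with 0 of 5 called in any contrast. The part of all these markers in the iBAT member values was not tested. Stard4 rose in Ctrl_CE (0.76 ± 0.13, adjusted p 2.42e-05) and in MetR_CE (0.69 ± 0.126, adjusted p 6.7e-05). On the MetR diet, cold raised Cyp51 (lanosterol demethylase), Msmo1 (a sterol methyl oxidase), Sqle and Hsd17b7 against MetR_RT, 4 of 29 genes with 0 falls, beside 3.41% and 5.13% of all genes (8.53% in either direction).

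**Figure D4:**
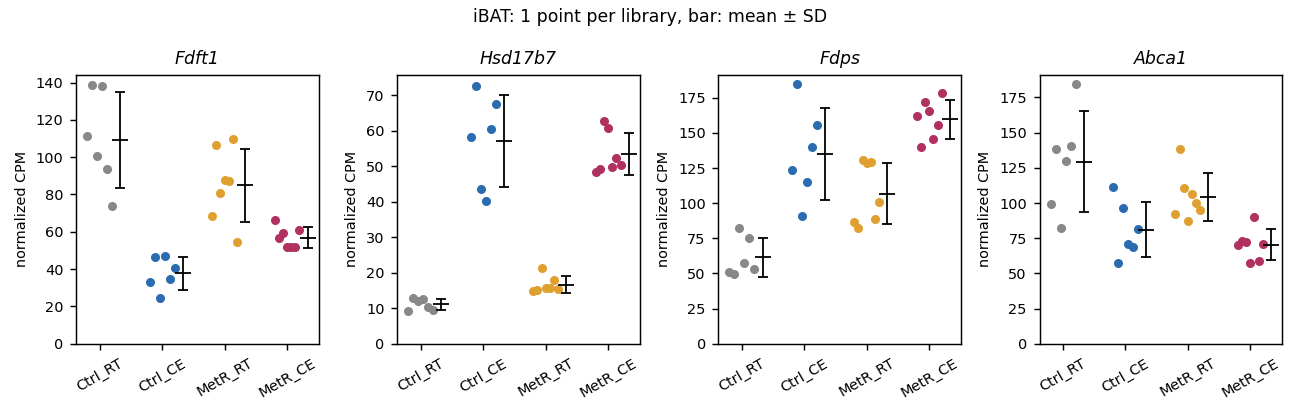
Levels in iBAT (CPM, linear axis from 0) of Fdft1, Hsd17b7, Fdps and Abca1 in each library of the 4 groups (6 or 7 a group), with bars at the mean ± SD. Cold groups lie high for Hsd17b7 and low for Fdft1 and Abca1, and Fdps is raised in all 3 treated groups.

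In iWAT each stimulus alone raised synthesis genes, and the combination raised fewer. In Ctrl_CE 14 of the 30 genes rose and 1 fell, beside 5.99% and 9.94% of all genes. In MetR_RT 5 rose and 0 fell (4.25% and 7.36%), and in MetR_CE 3 rose and 1 fell (8.05% and 14.4%). The median log2 change of the 18 synthesis genes was 0.80 in Ctrl_CE, 0.47 in MetR_RT and 0.20 in MetR_CE. All 18 interactions were below 0, with a median of -1.04, and 7 were called, where 1.14% of all genes had a called interaction below 0.

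Hsd17b7 led in cold iWAT. It was at 7.88 to 19.1 CPM in Ctrl_RT (median 11.9) and at 25.9 to 46.8 CPM in Ctrl_CE (median 34.4), without overlap (1.47 ± 0.2, adjusted p 5.91e-06). In MetR_CE it was at 20.7 to 31.1 CPM (1.08 ± 0.204, adjusted p 0.000124), also above every control. Sc5d, the sterol desaturase, rose in all 3 groups, from 109.3 to 303.5 CPM in Ctrl_RT to 364.9 to 526.9, 190.3 to 544.5 and 268.2 to 422.5 CPM in Ctrl_CE, MetR_RT and MetR_CE (1.13, 0.70 and 0.75, adjusted p 8.73e-05, 0.00937 and 0.00387). Hmgcs1 rose in all 3 as well: it was at 176.2 to 431.9 CPM in Ctrl_RT, with changes of 0.76 ± 0.188, 0.78 ± 0.188 and 0.95 ± 0.195 (adjusted p 0.00296, 0.00324 and 0.000299). Fdft1 was at 0.05 ± 0.179 in Ctrl_CE (adjusted p 0.883) and fell in MetR_CE against MetR_RT (-0.65 ± 0.188, adjusted p 0.0403), the only call there, beside 1.88% of all genes.

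The 7 iWAT interactions concerned genes along the whole chain. Pmvk, the phosphomevalonate kinase, had medians of 65.5, 156.5, 127.0 and 90.5 CPM in Ctrl_RT, Ctrl_CE, MetR_RT and MetR_CE (interaction -1.44 ± 0.352, adjusted p 0.0272). Fdps had medians of 41.3, 96.0, 79.8 and 62.8 CPM in that order (-1.34 ± 0.344, adjusted p 0.0332). Lss, the lanosterol synthase, had 52.4, 118.5, 87.7 and 63.5 CPM (-1.42 ± 0.392, adjusted p 0.0447). In each of these the combined group lay under either stimulus alone. Nsdhl had medians of 45.1, 103.1, 81.8 and 68.8 CPM (-1.27 ± 0.309, adjusted p 0.0269). Dhcr7 had 22.4, 41.03, 34.5 and 26.2 CPM (-1.26 ± 0.279, adjusted p 0.018), and Mvk 25.3, 35.5, 31.8 and 28.8 CPM (-0.59 ± 0.127, adjusted p 0.0157). Sc5d, with medians of 214.5, 428.8, 300.2 and 339.7 CPM (-1.08 ± 0.28, adjusted p 0.0344), was the member whose combined group lay above MetR_RT.

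Mvd was the only call between both cold groups of iWAT. It was at 33.4 to 56.4 CPM in Ctrl_CE and at 11.2 to 22.7 CPM in MetR_CE, without overlap (-1.36 ± 0.328, adjusted p 0.0247), beside 2.27% of all genes. Sqle, Lss, Cyp51 and Dhcr7 were also wholly lower in MetR_CE, by log2 values of -0.64, -0.81, -0.81 and -0.68 (adjusted p 0.142, 0.107, 0.121 and 0.0588). At an unadjusted p under 0.05 the comparison held 20 of the 30 genes, and DESeq2 called 5. The share of all genes at either setting was not counted. The control group of iWAT held a library, replicate 5, that was the highest for Pmvk, Fdps, Lss, Nsdhl and Tm7sf2, at 143.6, 86.4, 139, 92.4 and 21.9 CPM. Without it, a choice made after the data were seen, 18 genes were called in Ctrl_CE, 11 in MetR_RT, 8 in MetR_CE and 16 in the interaction.

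Insig1 in iWAT was at 260.6 to 1051 CPM in Ctrl_RT and at 505.6 to 1094 CPM in Ctrl_CE (0.62 ± 0.238, adjusted p 0.0486), with wide overlap. Srebf2 had a change of 0.21 ± 0.0814 in Ctrl_CE (adjusted p 0.0488), and Insig2 one of 0.46 ± 0.0694 in MetR_CE (adjusted p 7.07e-06), both under the fold threshold. Abca1 was lower in all 3 treated groups: it was at 160.5 to 347.7 CPM in Ctrl_RT, 138.8 to 217.6 in Ctrl_CE (-0.41 ± 0.134, adjusted p 0.0195) and 124.5 to 199.4 in MetR_RT (-0.58 ± 0.135, adjusted p 0.00233, just short of the fold threshold). In MetR_CE it was at 132.5 to 160.4 CPM (-0.71 ± 0.141, adjusted p 0.000219), below every control. Abcg1, at 50.7 to 102.1 CPM in Ctrl_RT, had changes of -0.54 ± 0.157 in Ctrl_CE (adjusted p 0.00978), -0.51 ± 0.157 in MetR_RT (adjusted p 0.0187) and -0.25 ± 0.163 in MetR_CE (adjusted p 0.245). Mylip, at 43.3 to 90.4 CPM in Ctrl_RT, had -0.34, -0.25 and -0.26 with no adjusted p under 0.05. Nr1h3 had 0.29, 0.18 and 0.40, past the p threshold in Ctrl_CE and MetR_CE (adjusted p 0.00806 and 0.000467).

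Markers of other cell types moved with these iWAT values. The macrophage markers summed to 1255 to 2025 CPM in Ctrl_RT, 229.7 to 1372 in Ctrl_CE, 199 to 876 in MetR_RT and 150 to 376 in MetR_CE, and 5 of 5 fell in each treated group. The 4 brown adipocyte markers summed to 45.7 to 756 CPM in Ctrl_RT, 764 to 5561 in Ctrl_CE, 376 to 4859 in MetR_RT and 3012 to 7386 in MetR_CE, and 4 of 4 rose in each. Skeletal muscle markers varied between the iWAT libraries (Myh4 from 0 to 10000 CPM, Acta1 from 0.313 to 4030), with 0 of 5 called in any contrast. The part of all these markers in the synthesis and exporter values was not tested. The single iWAT fall in Ctrl_CE, Abcg8, rested on 7 counts summed over the 7 control libraries against 0 over the 7 Ctrl_CE libraries. With a floor of 3 counts in place of that 0, the ratio of control to Ctrl_CE was 1.83. That ratio leaves out the sampling error of the 7 counts, so the size of the fall cannot be given. Abcg5 had 1 to 4 counts over each iWAT group.

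In eWAT, synthesis genes rose with cold on the control diet, and with cold on the MetR diet they lay far below that level. In Ctrl_CE 9 genes rose and 0 fell, beside 0.979% and 1.44% of all genes. No member was called in MetR_RT (0.115% of all genes) or in MetR_CE against Ctrl_RT (1.3%). At an unadjusted p under 0.05, edgeR's test gave 4 members in MetR_RT and 3 in MetR_CE, and DESeq2 called 0 in both. The interaction was called for 15 genes, 14 below 0 and 1 above, where 2.3% of all genes were called. Between both cold groups, 16 genes fell and 1 rose in MetR_CE against Ctrl_CE, beside 2.12% and 2.23% of all genes. Of the 4 brown adipocyte markers, 3 fell in that comparison as well, with sums of 4.62 to 28.2 CPM in Ctrl_CE and 4.06 to 12.8 in MetR_CE, and 1 rose in Ctrl_CE against Ctrl_RT. The 5 hepatocyte markers summed to 3359 to 6704 CPM in Ctrl_RT and to 251.4 to 3923 over all treated libraries, with 1 of 5 called lower in each cold group against Ctrl_RT. These sums were mostly Cyp2e1, at 240 to 6700 CPM over the eWAT libraries. Alb, Ahsg, Apoa2 and Fgb reached at most 146, 37.1, 21.4 and 16.5 CPM, so the sums do not measure hepatocyte content. Epididymis and epithelial markers varied between the eWAT libraries (Crisp1 from 0 to 966 CPM, Epcam from 0.0368 to 65.6), with 0 called in any contrast. The part of all these markers in the member values was not tested. The median log2 change of the 18 synthesis genes was 1.16 in Ctrl_CE, 0.55 in MetR_RT and -0.29 in MetR_CE, that of the interaction was -1.73, and all 18 interactions were below 0.

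Insig1 was at 169.5, 411.8, 131.5 and 382.4 CPM in the 4 Ctrl_RT libraries, and at 294.7 to 1467 CPM in Ctrl_CE with a median of 1049. On the MetR diet it was at 175.4 to 1039 CPM in MetR_RT (median 486.0) and at 116.1 to 290.9 CPM in MetR_CE (median 238.7). Ctrl_CE and MetR_CE did not overlap. The log2 changes were 1.85 ± 0.496 in Ctrl_CE (adjusted p 0.0317), 0.95 ± 0.485 in MetR_RT (adjusted p 0.552) and -0.38 ± 0.453 in MetR_CE (adjusted p 0.791). The interaction was -3.17 ± 0.644 (adjusted p 0.0107), and MetR_CE against Ctrl_CE -2.22 ± 0.408 (adjusted p 0.00116).

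Mvd followed the same order. It was at 10.9, 25.6, 10.5 and 13.4 CPM in Ctrl_RT, 19.8 to 97.1 in Ctrl_CE (median 46.5), 6.27 to 54.9 in MetR_RT and 7.14 to 15.6 in MetR_CE. Cold raised it on the control diet (1.9005 ± 0.476, adjusted p 0.0221), the interaction was -3.08 ± 0.617 (adjusted p 0.0107), and it fell in MetR_CE against Ctrl_CE by 2.29 on the log2 scale (SE 0.392, adjusted p 0.000675). Lss was at 31.7, 62.3, 31.04 and 44.2 CPM in Ctrl_RT, 44.2 to 221.8 in Ctrl_CE and 28.4 to 47.2 in MetR_CE (Ctrl_CE 1.63 ± 0.403, adjusted p 0.0208, and interaction -2.77 ± 0.525, adjusted p 0.00855). Fdps was at 20.4, 46.2, 25.5 and 31.2 CPM in Ctrl_RT, 27.2 to 156.6 in Ctrl_CE and 17.5 to 34.3 in MetR_CE (1.56 ± 0.427, adjusted p 0.0349, and -2.70 ± 0.558, adjusted p 0.0121). In every one of these genes MetR_RT spread over a wide range, and MetR_CE was the tightest group.

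The other called interactions ran along the chain from its first enzyme to its last. Acat2, the thiolase that starts it, had medians of 83.9, 120.3, 98.8 and 48.7 CPM in Ctrl_RT, Ctrl_CE, MetR_RT and MetR_CE (interaction -1.69 ± 0.4, adjusted p 0.0217). Pmvk had 53.97, 117.1, 72.5 and 39.7 CPM (-2.29 ± 0.48, adjusted p 0.0129), and Idi1 4.57, 9.79, 5.68 and 3.95 CPM (-1.73 ± 0.434, adjusted p 0.03). In the squalene and lanosterol steps, Sqle had 21.8, 53.9, 27.2 and 19.003 CPM (-2.00 ± 0.465, adjusted p 0.0198) and Cyp51 48.7, 123.1, 83.1 and 33.9 CPM (-2.66 ± 0.56, adjusted p 0.0131). The order of the 4 medians was the same in these 5 genes, with Ctrl_CE highest, MetR_RT next and MetR_CE lowest.

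In the later steps Ctrl_CE was again highest and MetR_RT next, but the place of MetR_CE varied. Msmo1 had medians of 21.9, 41.1, 27.04 and 21.1 CPM (-1.18 ± 0.32, adjusted p 0.043), and Nsdhl 45.5, 109.7, 58.3 and 34.1 CPM (-2.31 ± 0.519, adjusted p 0.0172). Hsd17b7 had 9.69, 31.8, 14.8 and 13.8 CPM (-1.72 ± 0.388, adjusted p 0.0176) and the lowest adjusted p of the cold rise on the control diet (1.503 ± 0.302, adjusted p 0.00566). The MetR_CE medians of Msmo1 and Nsdhl lay below the control medians, and those of Hsd17b7, Sc5d and Dhcr7 above them. Sc5d had 194.3, 469.9, 308.4 and 255.3 CPM (-1.74 ± 0.455, adjusted p 0.0373), and Dhcr7 16.5, 42.4, 23.8 and 17.7 CPM (-2.13 ± 0.48, adjusted p 0.0176). Hmgcs1 (-0.58 ± 0.374), Mvk (-0.75 ± 0.243), Fdft1 (-0.66 ± 0.185), Tm7sf2 (-1.39 ± 0.417) and Ebp (-0.35 ± 0.158) were the 5 synthesis genes whose interaction did not pass.

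Abcg1 was the member with an interaction above 0 (1.16 ± 0.314, adjusted p 0.0431). It was at 48.8 to 82.5 CPM over the 4 Ctrl_RT libraries, 33.1 to 68.3 in Ctrl_CE, 41.2 to 90.7 in MetR_RT and 62.6 to 128.9 in MetR_CE. It rose in MetR_CE against Ctrl_CE (1.03 ± 0.203, adjusted p 0.00204). Abca1 stayed at -0.16, -0.33 and -0.20 in Ctrl_CE, MetR_RT and MetR_CE with no adjusted p under 0.05, and so did Nr1h3 at -0.05, -0.16 and 0.01. The macrophage markers summed to 315 to 860 CPM in Ctrl_CE and 282.4 to 436 in MetR_CE, and 2 of 5 fell; their part in the exporter values was not tested. Mylip was at 54.7 to 131.7 CPM in Ctrl_RT and at 41.98 to 120.2 in Ctrl_CE (-0.50 ± 0.24, adjusted p 0.248). Insig2 had -0.18, -0.01 and 0.24, and Srebf2 0.20, 0.06 and -0.11, in that order of groups, with no adjusted p under 0.05. Abcg5 and Abcg8 were at under 1 CPM in each eWAT group, with 40 and 20 counts summed over the 4 Ctrl_RT libraries.

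The eWAT calls that use Ctrl_RT rested on few libraries. A Ctrl_RT library that the study left out exceeded every kept one for Insig1, Mvd, Lss and Fdps. The 3 left out had 285.1, 101.0 and 797.2 CPM of Insig1 when all eWAT libraries were normalized together, and the 4 kept ones 171.7, 416.6, 133.9 and 391.3. With all libraries no interaction was called among the 30 genes, beside 0.00318% of all genes (2.3% in the main fit). Insig1 was at -2.75, Mvd at -2.59 and Lss at -2.34, each with adjusted p 0.0776. In Ctrl_CE 6 of the 9 calls remained, where 8.24% of all genes were called with all libraries. Without Ctrl_RT replicate 1, 6 or 7, 1, 2 and 1 of the 9 calls in Ctrl_CE and 6, 11 and 11 of the 15 interactions remained, and without replicate 3 all 9 and all 15 did. The comparison of MetR_CE with Ctrl_CE uses none of these libraries in its means, and 14 of its 17 calls remained with all libraries (2.3% of all genes called).

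**Figure D5:**
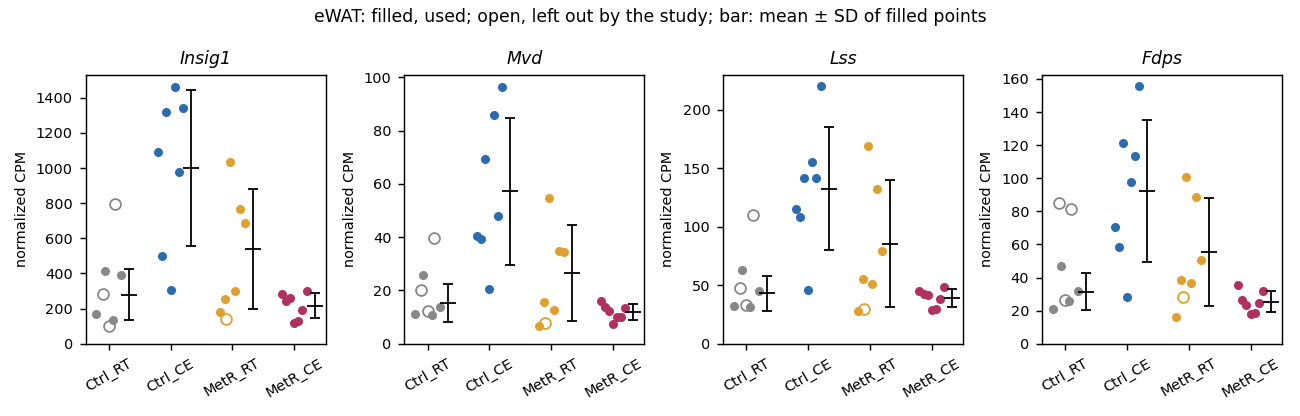
Levels in eWAT (CPM, linear axis from 0, all libraries normalized together) of Insig1, Mvd, Lss and Fdps in each library of the 4 groups. Filled points are the libraries used, open points the 4 that the study left out, and bars the mean ± SD of the filled points; Ctrl_CE is highest in each gene, MetR_CE is low and tight, and in each gene at least 1 open Ctrl_RT point lies above every filled one (797.2 against 416.6 for Insig1, 110.5 against 62.97 for Lss).

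Between tissues, levels in Ctrl_RT differed between liver and each fat in many of the 30 genes, as they did in many of all genes. In the joint fit over 4 tissues, 8 genes were higher and 15 lower in iBAT than in liver (24.3% and 19.2% of all genes). The counts were 6 and 16 in iWAT (27% and 18.8%), and 5 and 18 in eWAT (26.3% and 18.6%). In either direction, 43.5%, 45.8% and 44.9% of all genes were called. Abcg5 was at 161.5 ± 38.2 CPM (mean ± SD) in liver and at 0.249 ± 0.134 in eWAT, with 0.0139 in iBAT and 0.00352 in iWAT. Insig2 was at 398.1 ± 56.1 CPM in liver and at 39.1 ± 1.65 in iBAT, 45.2 ± 3.85 in iWAT and 60.5 ± 9.44 in eWAT. Ebp (214.9 ± 20.6 against 17.7 to 26.2) and Stard4 (96.5 ± 22.2 against 10.7 to 11.4) were likewise highest in liver.

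The reverse order held for the ligase and a lipoprotein exporter. Mylip was at 10.8 ± 1.94 CPM in liver, while iBAT had 35.8 ± 9.45, iWAT 58.4 ± 14.1 and eWAT 63.97 ± 26.1, and each fat exceeded liver by log2 values of 1.73 to 2.57. Abcg1 was at 10.7 ± 1.65 CPM in liver, with 28.5 ± 7.66 for iBAT, 49.2 ± 12.8 for eWAT and 63.9 ± 14.8 for iWAT. Both were higher in iWAT than in iBAT (0.71 ± 0.173, adjusted p 0.000334, and 1.17 ± 0.187, adjusted p 7.28e-08), and neither differed between iWAT and eWAT beyond the test. Insig1 was at 471.9 ± 127.8 CPM in iBAT and 474.5 ± 229.2 in iWAT, above liver (227.7 ± 69.9) and eWAT (210.5 ± 111.6). Fdft1 was higher in iBAT (122.2 ± 28.97 CPM) than in liver (74.8 ± 20.5), iWAT (43.5 ± 12.6) and eWAT (38.6 ± 4.46).

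The response to cold on the control diet differed between liver and iBAT in 9 genes, where 15.7% of all genes did. This fit does not account for the 4 tissues of a mouse. In limma voom with the mouse as a block (correlation 0.0328), 4 of these 9 remained (Fdft1, Insig2, Mylip and Nr1h3). That alternative changed the test as well as adding the block, and the part of each was not tested. Fdft1 differed most, by -2.56 ± 0.31 (adjusted p 2.25e-10, iBAT minus liver), since it rose in liver and fell in iBAT. Mylip also went in opposite directions (-1.40 ± 0.256, adjusted p 1.35e-05), and Insig1 was called in liver and not in iBAT (-1.44 ± 0.42, adjusted p 0.00858, and 0.0524 with the mouse as a block). Insig2 differed by 0.93 ± 0.174 (adjusted p 2.24e-05). Between iWAT and liver 7 genes differed (19% of all genes), between eWAT and liver 3 (11.3%, and 1 with the mouse as a block), between iWAT and iBAT 2 (12.9%, and 1), between eWAT and iBAT 3 (7.11%) and between eWAT and iWAT 0 (6.86%, with 5 members at an unadjusted p under 0.05). Against iBAT, Fdft1 responded higher in iWAT (1.57 ± 0.307, adjusted p 7.46e-05) and in eWAT (1.80 ± 0.338, adjusted p 7.14e-05).

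The diet alone gave 1 difference between iBAT and liver (4.46% of all genes), 4 between iWAT and liver (12.6%) and 1 between eWAT and liver (3.52%). Insig2 was among them in each pair (0.71, 0.87 and 0.60, adjusted p 0.00434, 5.04e-05 and 0.0494), since it fell in liver only of the 4 tissues. With diet and cold together, 13 genes differed between eWAT and liver (9.26% of all genes), 9 between iWAT and liver (20.4%) and 5 between iBAT and liver (14.7%). Of the 13, 9 were synthesis genes with a lower response in eWAT, among them Mvd (-1.84 ± 0.597, adjusted p 0.0333), Idi1 (-1.79 ± 0.482, adjusted p 0.00716) and Hsd17b7 (-1.57 ± 0.338, adjusted p 0.000534). In limma voom with the mouse as a block, 6 of the 13 remained, Idi1 and Hsd17b7 among them (adjusted p 0.027 and 0.00782). Mvd was lost (adjusted p 0.168). Between eWAT and iBAT 7 differed (9%), between eWAT and iWAT 3 (16%) and between iWAT and iBAT 3 (15.4%). Hsd17b7 responded less in eWAT than in iBAT (-1.92 ± 0.347, adjusted p 2.99e-05).

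A further list held 23 genes of sterol handling, such as sterol esterification, lysosomal release and SREBP processing. In Ctrl_CE, 4 of these rose and 1 fell for liver (7.28% and 4.64% of all genes), while iBAT had 4 and 2 (4.97% and 9.72%), iWAT 2 and 2 (5.99% and 9.94%), and eWAT 0 (0.979% and 1.44%). In liver the risers were Aacs (acetoacetyl-CoA synthetase), Lbr (a sterol reductase), Soat1 and Nceh1 (ester synthesis and breakdown), and Scarb1, the lipoprotein receptor for selective uptake, fell. In MetR_RT, liver had 1 up and 1 down (2.88% and 4.02%), iBAT 0 and 1 (0.535% and 1.97%), iWAT 0 and 4 (4.25% and 7.36%), and eWAT 0 (0.115% in either direction). In MetR_CE, liver had 4 up and 1 down (6.25% and 7.22%), iBAT 3 and 2 (4.36% and 10.3%), iWAT 1 and 5 (8.05% and 14.4%), and eWAT 0 (1.3% in either direction). Soat1, Soat2, Nceh1 and Ch25h were among the 5 that fell in iWAT, the tissue where all 5 macrophage markers fell, whose part in this was not tested.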

How the data were processed

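RNA was sequenced from liver, iBAT, iWAT and eWAT of 28 mice (110 libraries). The tables that the authors deposited hold raw counts per gene, whole numbers without normalization. Per the labels and the methods, reads were aligned to mm10 with STAR 2.7.9a and counted against GENCODE; featureCounts 2.0.3 and Salmon 1.9.0 are both named, the deposited tables are titled with Salmon, and their values are whole numbers. Such tools differ in how they split multi-mapped reads between related genes. All columns were matched to samples, and 0 were left unused. Of 56884 gene identifiers, 51948 had a symbol in the reference table, and all 30 members were found.

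Groups came from the sample titles. For 3 iBAT libraries a treatment tag names another group. The 5 libraries taken as left out by the study were iBAT Ctrl_CE replicate 5, eWAT Ctrl_RT replicates 2, 4 and 5, and eWAT MetR_RT replicate 7. They were checked against subsets of the sizes and groups that the study states, or none left out (8 for iBAT, 246 for eWAT). Mean normalized counts over the tissue's remaining libraries came closest to the study's mean counts with these libraries left out. This left 105 libraries. Genes with at least 10 counts over a tissue were kept (liver 22143, iBAT 23915, iWAT 26428, eWAT 27786). Each tissue was fitted with diet, temperature and their interaction by edgeR 4.0.16 (TMM factors, quasi-likelihood test, two-sided, R 4.3.3). P-values were adjusted by Benjamini-Hochberg over all genes of a contrast, and the call also needed a fold change of 1.5 or more in either direction. The SE is the log2 change divided by the root of the F statistic. Differences between tissues came from a joint fit over the 16 groups, over 32143 genes, with an adjusted p under 0.05. The model was tested on simulated data. The precision is set by the number of mice and by the library totals given with the results, which lie between 6987895 and 33444374 counts.

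Alternatives were DESeq2 1.42.0, other filters and size factors, no fold threshold, the replicate number as a block, all libraries, and libraries left out. Values are given in full for the 3 called members with the largest change per tissue and contrast, for members with a called interaction, and for the exporters, Srebf2, Insig1, Insig2, Mylip and Nr1h3. The members and lists were chosen with earlier results of these data known. Some genes of the pathway are not reported here.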

Additional observations from a re-analysis of the deposited data

Results flagged for a closer look

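Single libraries stood apart within their group for 26 of 456 combinations of member, tissue and group, by Dixon's ratio at the 95% level, where chance flags about 1 in 20 groups. In liver, Ctrl_CE replicate 1 was the high extreme for Hmgcs1 (1026 CPM), Mvk (55.8), Idi1 (39.6), Cyp51 (425.4), Msmo1 (427.8) and Srebf2 (130.5), Ctrl_RT replicate 1 for Insig2 (401.6), and MetR_RT replicate 3 the low extreme for Abcg5 (145.6) and Abcg8 (179.2). In iBAT, Ctrl_CE replicate 4 was low for Insig1 (284.5) and high for Mylip (32.4), and MetR_CE replicate 2 high for Mylip (28.1). In iWAT, Ctrl_RT replicate 5 was high for Pmvk (143.6), Fdps (86.4), Lss (139), Tm7sf2 (21.9) and Nsdhl (92.4), MetR_RT replicate 3 for Dhcr7 (63.2) and Stard4 (18.2), Ctrl_CE replicate 4 for Scap (60.6), Ctrl_CE replicate 7 for Mylip (78.99), and MetR_CE replicate 2 for Abca1 (160.4) and Nr1h3 (135). In eWAT, MetR_RT replicate 3 was high for Sc5d (732.9), and Ctrl_CE replicate 4 for Mylip (120.2) and Abca1 (271.96).

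The response to cold differed by diet, as a tested interaction, in 15 members for eWAT (2.3% of all genes) and 7 for iWAT (1.65%). It did so in 2 members for iBAT (0.372%) and 1 for liver (1.06%). With all libraries, 0 of the 15 in eWAT remained, and 0.00318% of all genes had a called interaction there. Against liver, the change in Ctrl_CE differed in 9 members for iBAT (15.7% of all genes), 7 for iWAT (19%) and 3 for eWAT (11.3%). Between fats it differed in 2 members for iWAT against iBAT (12.9%) and 3 for eWAT against iBAT (7.11%). In MetR_RT the change differed in 1, 4 and 1 members for iBAT, iWAT and eWAT against liver (4.46%, 12.6% and 3.52% of all genes). In MetR_CE it differed in 5, 9 and 13 members for iBAT, iWAT and eWAT against liver (14.7%, 20.4% and 9.26% of all genes). Between fats it differed in 3 for iWAT against iBAT (15.4%), 7 for eWAT against iBAT (9%) and 3 for eWAT against iWAT (16%).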

How the results depend on the processing

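Single members were followed only in comparisons where the main fit called them, and none of these calls reversed its direction under any alternative. Of these values, 1681 kept their call and 150 lost it. Members without a call were not followed. Among the counts and medians, 58 moved past the limits set. Those 58 are given here, each count beside the main one in parentheses, and the cause was not tested unless fewer libraries or no threshold sets it.

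With DESeq2, the counts were 2 for the liver interaction (1), 15 for the iWAT interaction (7), 2 and 5 for iWAT MetR_CE against MetR_RT and Ctrl_CE (1 and 1), 15 for eWAT Ctrl_CE (9) and 7 for eWAT MetR_CE against MetR_RT (0). With the filter of filterByExpr they were 12 for the iWAT interaction (7), and 2 and 4 for iWAT MetR_CE against MetR_RT and Ctrl_CE (1 and 1). With the adjusted p alone they were 7 for liver MetR_RT (3), 21, 9 and 14 for iBAT Ctrl_CE, MetR_RT and MetR_CE against MetR_RT (11, 5 and 4), 10 and 8 for iWAT MetR_RT and MetR_CE (5 and 4) and 1 for eWAT MetR_CE (0). With only the compared groups in the fit they were 2 and 7 for iWAT MetR_CE against MetR_RT and Ctrl_CE (1 and 1), and 3 and 1 for eWAT Ctrl_CE and MetR_CE (9 and 0).

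The replicate numbers did not pair the samples: same-numbered libraries correlated above 0.1 in 3 of 42 pairs in liver, 16 of 36 in iBAT, 18 of 39 in iWAT and 15 of 30 in eWAT, and 2 of 28, 5 of 26, 3 of 27 and 5 of 24 libraries correlated best with their own number. With the replicate number as a block the counts were 1 for the iBAT interaction (2), 0 for iWAT MetR_CE against MetR_RT (1) and 14 for eWAT Ctrl_CE (9).

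Grouping the 3 iBAT libraries by their tag, or leaving them out, gave 0 for the iBAT interaction (2) and 0 for MetR_CE against Ctrl_CE (1). Leaving out eWAT libraries in turn gave 1 to 16 calls for Ctrl_CE (9) and 6 to 19 for the interaction (15). Leaving out iWAT Ctrl_RT replicate 5 gave 11 for MetR_RT (5), 8 for MetR_CE (4), 16 for the interaction (7), and 2 and 4 for MetR_CE against MetR_RT and Ctrl_CE (1 and 1). The latter, and eWAT Ctrl_CE without Ctrl_CE replicate 4 (16), were chosen after the data were seen.

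With all libraries, eWAT gave 0 for the interaction (15) and 1 for MetR_CE (0), beside 0.00318% and 10.4% of all genes. The eWAT synthesis medians were then 0.91, 0.19 and -0.42 in Ctrl_CE, MetR_RT and MetR_CE (1.16, 0.55 and -0.29), and the export medians -0.16, -0.0746 and 0.24 (0.03, -0.23 and 0.70). These export medians are over 4 genes, of which Abcg5 and Abcg8 had means under 1 CPM in each eWAT group. Between tissues, all libraries gave 6 for eWAT against liver, 1 for iWAT against iBAT and 7 for eWAT against iBAT in Ctrl_CE (3, 2 and 3), 2 for iWAT and 2 for eWAT against liver in MetR_RT (4 and 1), 14 and 5 for eWAT against iBAT and iWAT in MetR_CE (7 and 3), and 4 for the Ctrl_RT level of eWAT against iWAT (2). With the mouse as a block in limma voom (correlation 0.0328), Ctrl_CE gave 4 for iBAT against liver, 1 for eWAT against liver and 1 for iWAT against iBAT (9, 3 and 2), MetR_CE 6 for eWAT against liver (13) and MetR_RT 1 for eWAT against iWAT (0). Test and block changed together there, so these counts do not show the effect of the block alone.

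Depth limited Abcg5 and Abcg8 in fat, where a group summed to 0 to 130 counts. Whether replicates came from separate extractions or runs is not stated, and p-values measure the spread between these mice.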
